A study of Mus musculus with 9 samples.

Results

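The response of dendritic cells (DCs) to interferon-β (IFN-β) was measured by RNA sequencing after 6 h. DCs were grown from the bone marrow of wild-type mice in medium with GM-CSF, the growth factor that drives myeloid precursors towards DCs and macrophages in culture. The mice were adult females of the C57BL/6 strain, as given in the methods of the study. The comparison used the 6 libraries that the labels assign to IFN-β or to no stimulation, out of 9 in the series: 3 from DCs given IFN-β at 1000 U/mL for 6 h and 3 from DCs left unstimulated for 6 h. The other 3 libraries came from DCs given lipopolysaccharide (LPS) at 100 ng/mL for 6 h, and they entered the model for its estimate of the spread and for a direct comparison with IFN-β. Within each group the libraries carry the letters A, B and C. All groups shared genotype and GM-CSF, so each value describes cultured cells with this growth factor present. Nothing in the labels says that the letters mark separate cultures or animals, so p-values measure the spread between these libraries, which may be technical. Total RNA was sequenced after removal of ribosomal RNA, and the deposited values are raw counts of reads per gene.

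IFN-β is a type I interferon. It binds a receptor made of IFNAR1 and IFNAR2, whose associated kinases TYK2 and JAK1 phosphorylate STAT proteins. STAT2 acts with IRF9 in the complex ISGF3, which enters the nucleus and binds the interferon-stimulated response element (ISRE) in the promoters of interferon-stimulated genes, while STAT dimers bind a separate element, the gamma-activated site (GAS). The genes so induced encode proteins that block virus replication, sense viral nucleic acid and present antigen, and also the inhibitors that end the signal. In DCs, type I interferon is known as a signal of maturation and of cross-presentation to T cells.

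Between 33425803 and 35877346 counts per library fell on genes in unstimulated DCs (median 35134316), and between 36843765 and 43735199 in IFN-β-treated DCs (median 36948074). Values for single libraries are given as CPM, the counts of a gene relative to the library size after correction by TMM factors, which were 1.18 to 1.26 in unstimulated and 0.977 to 1.02 in IFN-β-treated libraries. Changes are log2 fold changes of IFN-β-treated over unstimulated DCs with the standard error (SE), and a gene was called changed at an adjusted p-value under 0.05 in edgeR's quasi-likelihood test. Scaling by library size alone shifted the median change by -0.31, so each change is relative to the TMM scale. The cells carried transcripts of DCs and of macrophages. The summed level of 8 DC markers was 4751 to 5707 CPM over the 6 libraries. That of 8 macrophage and monocyte markers was 12029 to 15415 CPM. Most of this second sum came from *Lyz2*, with a mean of 1.37% of all counts in unstimulated and 1.02% in IFN-β-treated libraries. The sums of the 2 lists therefore do not give the relative amounts of the cell types. The DC markers include the MHC class II genes *Cd74* and *H2-Aa*, and their sum does not separate DCs from macrophages. *Itgax*, which encodes CD11c, was at 1367, 1361 and 1396 CPM in unstimulated and 1359, 1509.8 and 1586 CPM in IFN-β-treated DCs, and *Zbtb46*, a transcription factor of conventional DCs, at 27.8, 32.9 and 36.8 and 32.1, 36.2 and 36.5 CPM. The DC marker *Flt3* was at 4.51, 2.43 and 2.23 and 3.96, 2.12 and 1.88 CPM, and *Cd209a*, another, at 0.127, 0.112 and 0.361 and 0.0234, 0 and 0.110 CPM. *Lyz2*, *Csf1r* and *Adgre1* of the macrophage list were high in all 6 libraries. Summed markers of neutrophils reached 23.2 CPM at most, those of plasmacytoid DCs 6.93 CPM, those of stromal cells 5.28 CPM, and those of mast cells, B cells, T and NK cells and erythroid cells at most 1.75 CPM. The plasmacytoid DC sum rose from a mean of 2.95 CPM in unstimulated to 5.88 CPM in IFN-β-treated libraries. Of 3 tested plasmacytoid DC markers, 2 were called higher. In these bulk samples, a change in the number of cells of a type and a change in RNA per cell cannot be told apart.

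Promoters of 7 genes of the response are shown first, since the ISRE is the element through which ISGF3 acts. They were chosen because their windows hold the ISRE core, which the windows of *Irf9*, *Irf7*, *Irf1*, *Oasl1*, *Cxcl9*, *Cmpk2*, *Tap1*, *Tlr3*, *Ifnar1* and *Ifnar2* do not. The stretches below come from the RefSeq promoter windows of the mouse assembly GRCm38.p6, which run from 250 bases before to 50 bases after the annotated start site. They are written in the direction of transcription, and capitals mark matches to the ISRE core GAAANNGAAA or, on the other strand, TTTCNNTTTC, with overlapping matches joined. The set holds a component of ISGF3 (*Stat2*), a feedback inhibitor (*Socs1*), antiviral genes (*Isg15*, *Ifit1* and *Rsad2*), a chemokine (*Cxcl10*) and a guanylate-binding protein (*Gbp5*).
Stat2: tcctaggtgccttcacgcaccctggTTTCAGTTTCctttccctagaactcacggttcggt
Socs1: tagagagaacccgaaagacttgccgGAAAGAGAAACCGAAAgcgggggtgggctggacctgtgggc
Isg15: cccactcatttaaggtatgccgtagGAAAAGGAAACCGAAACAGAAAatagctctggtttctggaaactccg
Ifit1: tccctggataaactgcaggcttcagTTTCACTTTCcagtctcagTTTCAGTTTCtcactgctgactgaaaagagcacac
Rsad2: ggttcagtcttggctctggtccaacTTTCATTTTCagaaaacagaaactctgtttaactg
Cxcl10: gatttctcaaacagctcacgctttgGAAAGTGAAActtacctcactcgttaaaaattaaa
Gbp5: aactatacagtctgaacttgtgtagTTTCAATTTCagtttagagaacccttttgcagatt
These stretches lie at chr10:128270251-128270310 on the + strand (*Stat2*), chr16:10785579-10785644 on the - strand (*Socs1*), chr4:156200850-156200921 on the - strand (*Isg15*) and chr19:34640760-34640838 on the + strand (*Ifit1*). The remaining ones lie at chr12:26456538-26456597 on the - strand (*Rsad2*), chr5:92349068-92349127 on the - strand (*Cxcl10*) and chr3:142496744-142496803 on the + strand (*Gbp5*). Counted from the start site, the first core began at -222 in *Stat2*, -83 in *Socs1*, -78 in *Isg15*, -104 in *Ifit1*, -120 in *Rsad2*, -213 in *Cxcl10* and -165 in *Gbp5*. *Isg15* held 3 overlapping cores in a run of GAAA repeats, and *Socs1* and *Ifit1* held 2 each. The match is one of letters and does not show that a factor was bound. Of all 32851 promoter windows, 3.44% held the core.

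IFN-β changed the expression of 7631 of 16260 tested genes (46.9%), of which 3837 were higher (23.6%) and 3794 lower (23.3%). At an unadjusted p under 0.05, 8696 genes passed. The counts in the 2 directions were alike but the sizes were not. Among the changed genes, 1329 rose by a log2 fold change of at least 1 (8.17% of tested genes) and 723 fell by as much (4.45%). At a log2 fold change of 3 or more, 203 genes were higher and 8 lower, and at 5 or more 52 were higher and none was lower. The median was 0.72 among genes called higher, -0.59 among genes called lower and -0.02 over all tested genes. The balance of the 2 directions depended on scaling: by library size alone, 2146 genes were called higher and 7484 lower. The 1329 genes that rose by 1 or more took 4.76% to 5.95% of all counts without stimulation, against 14.8% to 16.5% with IFN-β. Single genes with the largest gains in share were *Rnf213*, a giant ubiquitin ligase with antimicrobial activity, from a mean of 0.148% to 0.686% of all counts, *Actb*, which encodes β-actin, from 1.38% to 1.85%, and *Rsad2*, from 0.00570% to 0.347%. Values of the 3 unstimulated and the 3 IFN-β-treated libraries did not overlap for 7514 of the called genes, against 9449 (58.1%) of all tested genes.

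**Figure D1:**
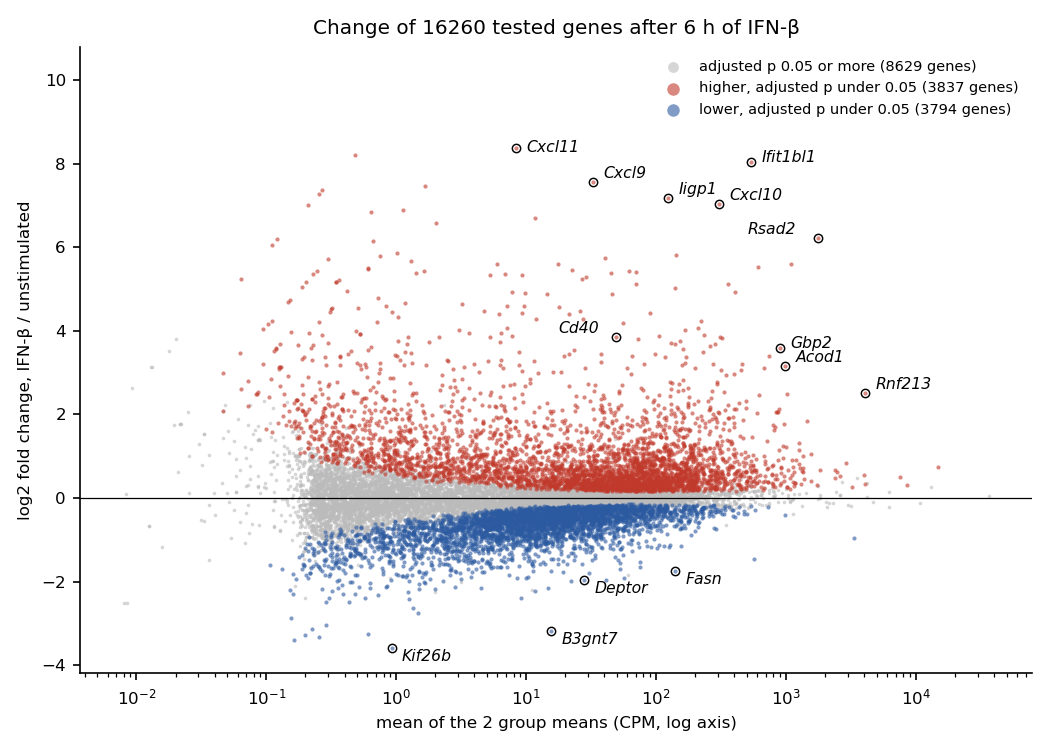
Log2 fold change of IFN-β-treated over unstimulated DCs (vertical axis) against mean expression in CPM on a log axis (horizontal axis) for the 16260 tested genes, with genes called higher, lower or neither in different colours. Called changes ran from -3.60 to 8.39, and the larger ones lay above 0.

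The members of each functional list are counted below against the 23.6% of all tested genes that were higher and the 23.3% that were lower. The receptor and its signalling components all rose. All 8 listed genes were called higher, with a median log2 fold change of 0.65 where that of all tested genes was -0.02. *Stat2*, a signal transducer of ISGF3, was at 239.6, 187 and 120.3 CPM in unstimulated libraries A, B and C and at 827, 793 and 807 CPM in the IFN-β-treated ones, a log2 fold change of 2.15 ± 0.20 (SE, adjusted p = 1.54e-05). The groups did not overlap, and each IFN-β-treated library was above the highest unstimulated library. The DNA-binding component of ISGF3, *Irf9*, was at 62.8, 57.1 and 43.9 and then 91.2, 88.7 and 93.6 CPM (0.74 ± 0.11, adjusted p = 3.53e-04). The kinases and receptor chains moved less. *Tyk2* rose by 0.74 on the log2 scale, *Jak1* by 0.49, *Ifnar1* by 0.57 and *Ifnar2* by 0.54, all without overlap between groups, and the call for *Jak1* was lost when libraries were scaled by size only (0.18, adjusted p = 0.053).

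Inhibitors of the pathway divided into those that rose and those that did not pass the test. Of 12 listed, 6 rose and none fell, with a median of 0.24 that turned to -0.07 under scaling by library size only. A fit with the replicate letters as a block had 8 higher and 0 lower. *Usp18*, which encodes the protease that removes ISG15 from proteins and blocks IFNAR2, was at 54.2, 46 and 23.2 CPM and rose to 550.2, 503 and 535 CPM (3.69 ± 0.26, adjusted p = 3.01e-06). *Socs1*, a suppressor of JAK kinases, rose from 39.3, 37.8 and 35.2 to 132, 127 and 139 CPM (1.83 ± 0.12, adjusted p = 1.95e-06). Both genes were separate between groups. *Socs3* rose by 1.11 and the phosphatase genes *Ptpn6* and *Ptpn2* by 0.84 and 0.43. *Cish* (0.07), *Socs2* (0.15) and *Ptpn1* (0.12) did not pass.

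Interferon regulatory factors (IRFs), the transcription factors that drive and respond to interferon, showed a graded pattern. Of 10 tested, 5 rose and 1 fell, and the median of 0.25 became -0.06 under scaling by library size only, where 4 rose and 3 fell. With upper-quartile factors, 5 rose and 2 fell. *Irf7*, the factor that amplifies interferon production, was at 228, 161 and 33.3 CPM in unstimulated DCs, where library A was several times above library C, and at 1394, 1180.2 and 1102 CPM after IFN-β (3.12 ± 0.52, adjusted p = 7.20e-04). *Irf1* rose from 77.8, 62.7 and 50.3 to 285, 234 and 251 CPM (2.01 ± 0.18, adjusted p = 1.40e-05). Smaller rises were seen for *Irf8* (0.81), a factor of DC development, *Irf2* (0.76) and *Irf5* (0.36). *Irf3*, the constitutive factor downstream of nucleic acid sensors, fell from 29.2, 27.8 and 29.9 to 21.3, 24.7 and 24.6 CPM (-0.30 ± 0.08, adjusted p = 0.00729). *Irf4* did not pass (0.04). With the replicate letters as a block, 2 IRF genes were called lower in place of 1.

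**Figure D2:**
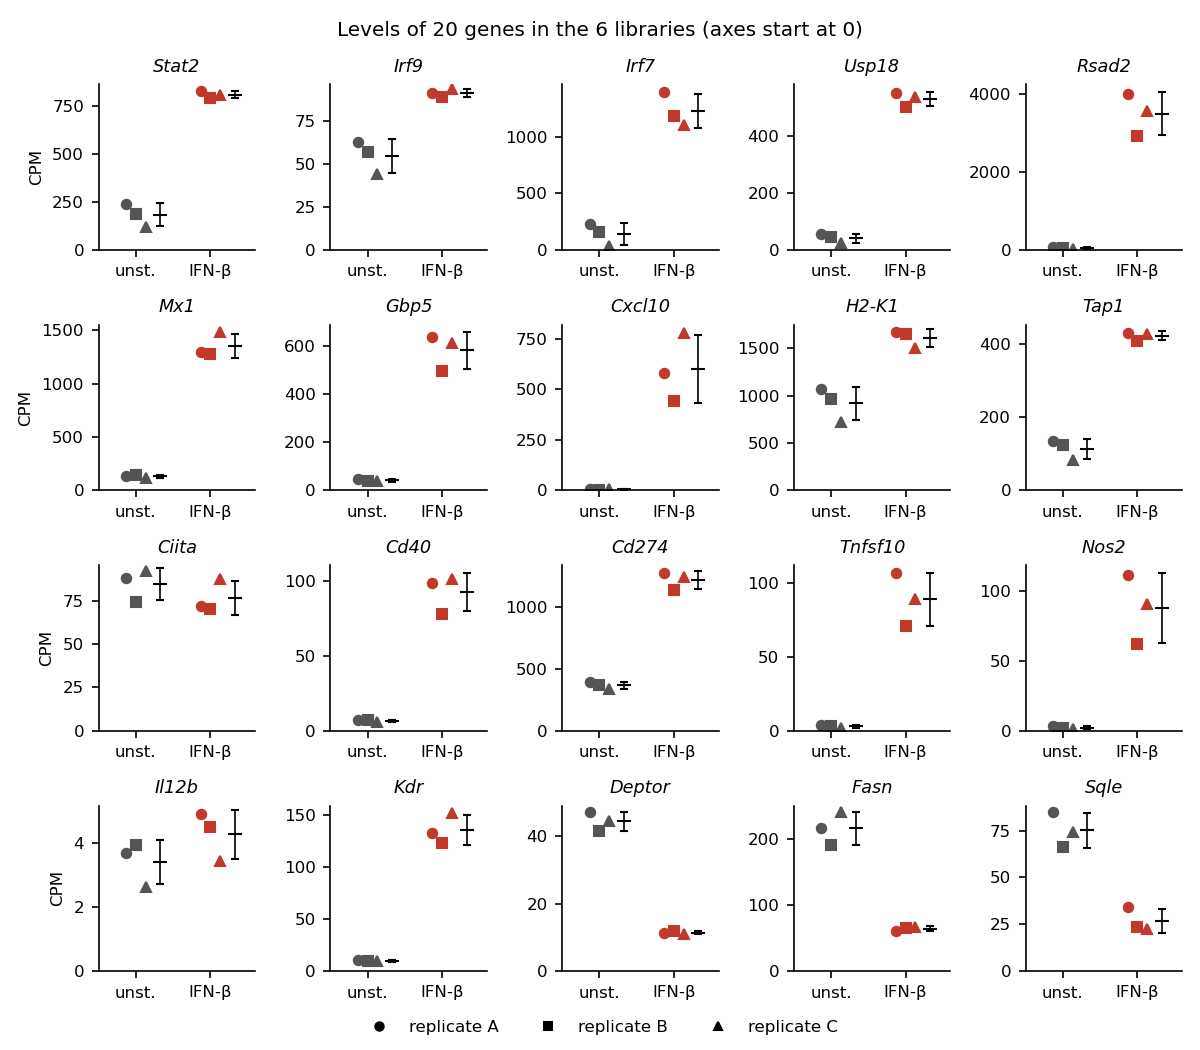
Levels in CPM of 20 genes in the single unstimulated (grey) and IFN-β-treated (red) libraries, with a symbol for each replicate letter, the group mean ± SD as a bar (n = 3), and axes that start at 0. *Stat2*, *Irf9*, *Irf7* and *Usp18* were separate between groups, and *Ciita* and *Il12b* overlapped.

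The direct antiviral effectors made up the group with the most risen genes: 57 of 61 tested rose and 1 fell, with a median of 2.02, and 53 rose by 1 or more. *Ifit1*, whose product binds viral RNA lacking host cap methylation and whose promoter held 2 ISRE cores, was at 40.7, 25.9 and 11.2 CPM in unstimulated DCs and at 894, 727 and 744 CPM after IFN-β (4.93 ± 0.40, adjusted p = 6.76e-06). *Rsad2*, encoding viperin, an enzyme that makes a chain-terminating nucleotide, rose from 79.4, 41.4 and 20.4 to 4007, 2923 and 3580.0 CPM (6.22 ± 0.46, adjusted p = 3.89e-06). *Mx1*, a gene of the dynamin-like GTPase family, rose from 135, 142 and 111 to 1298, 1283 and 1484 CPM (3.39 ± 0.12, adjusted p = 1.82e-07). Whether these C57BL/6 cells make an active MX1 protein was not measured. The groups were separate for all 3 genes, and unstimulated library C held the lowest value of each. *Oasl1*, of the oligoadenylate synthetase family, was at 35.8, 28.6 and 6.14 and 426, 398 and 362 CPM (4.07 ± 0.49, adjusted p = 8.10e-05). The largest change in the list was that of *Ifit1bl1* (8.05 ± 0.68, adjusted p = 8.28e-06), at 9.1, 2.02 and 1.26 and 1330.0, 888 and 1019.8 CPM, a gene close in sequence to *Ifit1* whose counts are uncertain for that reason. The restriction factors *Samhd1* (1.83), *Bst2* (1.79) and *Ifitm3* (1.80) and the RNA-activated kinase *Eif2ak2* (1.61) rose as well. The exceptions were *Ifitm2* (-0.02), *Ifitm1* (-0.14) and *Ifi30* (-0.18), which did not pass, and *Ifi27*, a mitochondrial protein, which fell by 0.86 (adjusted p = 0.028), a call lost without unstimulated C (-0.60) or without IFN-β-treated A (-0.68) or B (-0.74). With the replicate letters as a block, 2 antiviral genes were called lower.

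The unstimulated libraries were not alike in these genes. The summed level of the 61 antiviral genes was 5254 CPM in unstimulated A, 4307 CPM in B and 2963 CPM in C, and 27413, 22970 and 25333 CPM in IFN-β-treated A, B and C. Of the 61 genes, 54 had their highest unstimulated value in library A and 56 their lowest in library C. The median over the genes of log2(CPM + 0.5) was 5.37, 5.09 and 4.31 in unstimulated A, B and C and 7.57, 7.63 and 7.43 after IFN-β. These medians lay further apart among the unstimulated libraries than among the treated ones. Without unstimulated C, the median change of the list was 1.75 in place of 2.02. The transcript of IFN-β itself had 0, 0 and 1 counts in unstimulated A, B and C.

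**Figure D3:**
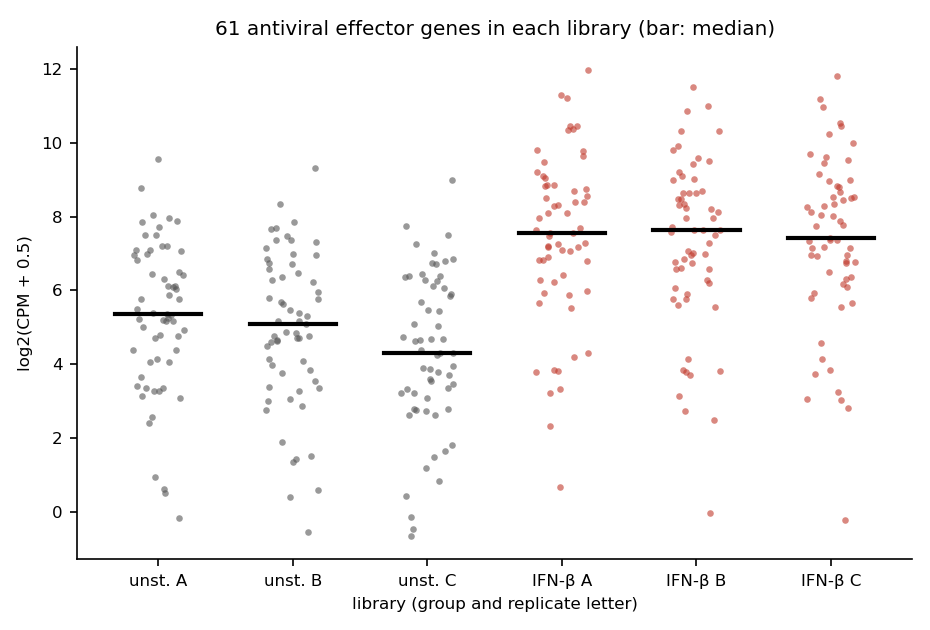
Log2(CPM + 0.5) of the 61 tested antiviral effector genes in each of the 6 libraries, with 1 point per gene and a bar for the median. The median was 5.37, 5.09 and 4.31 in unstimulated A, B and C and lay between 7.43 and 7.63 in the IFN-β-treated libraries.

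The list of ISG15 conjugation had 6 of 6 genes called higher and a median of 2.91. It held *Isg15*, which encodes the ubiquitin-like protein itself, genes for enzymes that attach it, and *Usp18*, whose product removes it. *Isg15* was at 35.8, 22.1 and 8.8 CPM and rose to 451, 402 and 409.7 CPM (4.25 ± 0.40, adjusted p = 1.64e-05). The activating enzyme gene *Uba7* rose by 2.58, the conjugating enzyme gene *Ube2l6* by 2.44 and the ligase gene *Herc6* by 3.23.

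All 18 genes of the guanylate-binding proteins (GBPs) and immunity-related GTPases, which attack the vacuoles of intracellular pathogens, rose by at least 1, with a median of 3.46. *Gbp5* was at 45.8, 38.6 and 36.8 and 634, 494 and 612 CPM (3.84 ± 0.14, adjusted p = 1.82e-07) and *Iigp1* at 2.94, 1.84 and 0.361 and 288, 207 and 238 CPM (7.18 ± 0.47, adjusted p = 1.95e-06). Neither overlapped between groups. *Gbp10* had no count in any unstimulated library and 114 counts after IFN-β, which makes it at least 13.8-fold higher against a floor of 3 counts per library. These families hold near-identical copies such as *Tgtp1* and *Tgtp2* (5.34 and 5.13). Reads that match several copies may be lost, so that single members are uncertain.

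The Ifi200 family, which binds DNA in nucleus and cytosol, rose in 10 of 10 tested genes, with a median of 3.20. *Ifi205* rose from 11.2, 9.66 and 4.33 to 313, 241 and 266 CPM (5.03 ± 0.31, adjusted p = 1.44e-06) and *Ifi204* by 3.20, while *Aim2*, the sensor that builds an inflammasome on cytosolic DNA, rose by 1.24. *Ifi208* was at 0.152, 3.3 and 0.632 CPM in unstimulated and 0.867, 77.8 and 79.3 CPM in IFN-β-treated DCs (5.23 ± 1.68, adjusted p = 0.0256). Its value in the libraries lettered A was far below that in B and C, and it was low in LPS library A as well (0.920, 116 and 91.3 CPM in LPS A, B and C), so the groups overlapped. The call for *Ifi208* was lost without unstimulated A (4.73) or C (4.88), or without IFN-β-treated B (4.84) or C (4.82).

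Schlafen genes, regulators of growth and translation in myeloid cells and lymphocytes, rose in 8 of 8 tested, with a median of 2.37. *Slfn4* was at 46.1, 55 and 13.5 and 437, 626 and 375 CPM (3.65 ± 0.44, adjusted p = 8.22e-05) and *Slfn9* at 39.7, 31.7 and 27.1 and 264, 190.0 and 219.9 CPM (2.78 ± 0.18, adjusted p = 1.69e-06). Among the PARP family, 10 of 15 genes rose and 2 fell (median 1.24), and 9 rose and 5 fell under scaling by library size only. Those that rose included the antiviral mono-ADP-ribosyltransferases *Parp11* (2.47 ± 0.10, adjusted p = 2.76e-07), *Parp12* (2.32), *Parp10* (2.13) and *Parp14* (2.12) with *Dtx3l* (2.03), the ligase partner of PARP9. *Parp1*, the enzyme of DNA repair, fell from 58, 58.1 and 61.1 to 32.4, 33.7 and 34.4 CPM (-0.82 ± 0.09, adjusted p = 3.39e-05). The 5 genes of nuclear bodies rose (median 2.18), *Daxx* by 2.63, *Sp140* by 2.28, *Sp110* by 2.18, *Sp100* by 1.93 and *Pml*, which forms the body's scaffold, by 1.92.

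Many of the genes that rose by 1 or more lay next to each other. Taking tested genes in their order along each chromosome, 86 runs of at least 3 neighbours held 379 such genes. Falls of 1 or more, which were fewer (4.45% of tested genes against 8.17%), gave 12 runs with 39 genes, and the frequency of runs was not compared between directions. The longest run had 19 genes of and around the Ifi200 family at chr1:173350879-174248450. A run of 15 genes at chr19:11139664-11604849 held members of the *Ms4a* family, which encodes membrane proteins with 4 spans. Runs of 11 genes lay at chr11:48861968-49135387, from *Irgm1* to *Ifi47*, and at chr7:104299894-104647305, with the *Trim12* and *Trim30* genes. Further runs, with other genes and non-coding transcripts counted in, held Schlafen genes (9 genes in all, chr11:82910550-83040042), *Oas* genes (8 genes, chr5:120730333-120921652), *Sp100*, *Sp110* and *Sp140* (8 genes, chr1:85199613-85709998), *Phf11* genes (7 genes, chr14:59244441-59440884) and *Gbp* genes (6 genes, chr3:142493978-142638008). Runs of *Ifit* genes (6 genes, chr19:34550694-34650009) and of *Gbp* genes on chromosome 5 (6 genes, chr5:105014150-105346472) held no other gene. Coordinates are those of GRCm38. Neighbours of a family share sequence, and some genes of a run overlap, so the members of a run are not independent measurements.

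Sensors of nucleic acid rose in 15 of 17 tested genes, with 1 lower and a median of 1.24. *Tlr3*, the endosomal receptor for double-stranded RNA, was at 15, 10.2 and 8.73 CPM in unstimulated and 148, 96 and 115 CPM in IFN-β-treated DCs (3.41 ± 0.24, adjusted p = 3.25e-06). The cytosolic RNA sensors rose too: *Ifih1* (MDA5) from 99.8, 85.9 and 53.9 to 691, 552 and 587 CPM (2.93 ± 0.22, adjusted p = 4.03e-06), *Ddx58* (RIG-I) by 2.22 and *Dhx58* (LGP2) by 2.16. No group overlap was seen for these 4 genes. The endosomal receptors *Tlr9* (2.37), *Tlr7* (1.66), *Tlr8* (1.17) and *Tlr13* (0.63), the chaperone *Unc93b1* (0.62) and the DNA sensor *Cgas* (1.18) rose, with *Zbp1*, a sensor of Z-form nucleic acid, at 2.33. The adaptors *Mavs* and *Sting1* were not called higher in the main fit. *Mavs*, the mitochondrial adaptor of RIG-I and MDA5, fell from 37.5, 37.4 and 37.3 to 28.3, 32.5 and 27.9 CPM (-0.34 ± 0.08, adjusted p = 0.00474), and *Sting1*, the adaptor of cGAS, did not pass (0.21, adjusted p = 0.12). With the replicate letters as a block, 16 genes of this list were higher and 1 lower, and *Sting1* was among the higher ones.

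Among the other Toll-like receptors and their adaptors, 10 of 18 rose and 2 fell, with a median of 0.37. These values were 7, 5 and 0.06 under scaling by library size only. *Tlr1* rose from 24.5, 14.9 and 8.42 to 50.6, 33 and 25 CPM (1.19 ± 0.39, adjusted p = 0.0275), a call lost without unstimulated B (1.14) or C (0.88) or without IFN-β-treated A (0.86). *Tlr11*, *Tlr2* and *Tlr6* rose by 0.95, 0.82 and 0.69, and *Tlr4*, the LPS receptor, by 0.40 with its partner *Ly96* by 0.51. *Cd14*, the LPS co-receptor, fell by 0.27, and the kinase gene *Irak1* fell from 75.3, 72 and 77.1 to 54.6, 57.3 and 53 CPM (-0.44 ± 0.06, adjusted p = 1.84e-04). Only 1 of the 2 falls was called without unstimulated A or C or without IFN-β-treated A or B.

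Antigen presentation is given by its class I and class II routes. MHC class I presentation, which shows peptides from the cytosol to CD8 T cells, rose in 24 of 26 tested genes (median 1.24). *Nlrc5*, the transactivator of class I genes, was at 128, 127 and 94 CPM in unstimulated DCs and 479, 477 and 509 CPM after IFN-β (2.07 ± 0.12, adjusted p = 1.10e-06). *Tap1*, which encodes a subunit of the peptide transporter, rose from 135, 123 and 83.1 to 431, 408 and 427 CPM (1.89 ± 0.15, adjusted p = 6.98e-06), and *H2-K1*, a class I heavy chain, from 1067, 964 and 727 to 1673, 1651 and 1506 CPM (0.81 ± 0.16, adjusted p = 0.00167). None of these 3 genes overlapped between groups. Subunits of the immunoproteasome, *Psmb9* (1.78), *Psmb10* (1.74) and *Psmb8* (1.05), rose, as did *B2m* (0.67), the light chain. The largest change was that of the non-classical gene *H2-T22* (2.55 ± 0.19, adjusted p = 4.49e-06), a member of a family of similar genes. *Calr* (0.11) and *Canx* (0.17), general chaperones of the endoplasmic reticulum, did not pass in the main fit. With the replicate letters as a block, 25 class I genes were higher in place of 24.

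MHC class II presentation, which shows peptides from the endosome to CD4 T cells, had 2 genes higher and 1 lower of 14 tested (median 0.06). The transactivator *Ciita* was at 88.8, 74.8 and 92.4 CPM in unstimulated and 72.2, 70.6 and 88.3 CPM in IFN-β-treated DCs (-0.15 ± 0.14, adjusted p = 0.43), and the groups overlapped. *H2-Aa* (0.07), *H2-Ab1* (0.04), *H2-Eb1* (0.02) and the invariant chain *Cd74* (0.08) did not pass. The risen genes were *Marchf1* (0.63 ± 0.10, adjusted p = 6.27e-04), a ubiquitin ligase that removes class II molecules from the surface, and *H2-Oa* (0.58), an inhibitor of peptide loading. *H2-DMb2* fell by 0.46 (adjusted p = 0.0223), and that call was lost without unstimulated A (-0.44) or C (-0.35) or without IFN-β-treated A (-0.39) or B (-0.39). With the replicate letters as a block, 4 class II genes were higher in place of 2. Under scaling by library size only, the median of this list was -0.24, with 1 gene higher and 6 lower, and with upper-quartile factors it was -0.02.

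Costimulatory and coinhibitory ligands rose in 12 and fell in 4 of 21 tested genes (median 0.40), and in 8 and 5 under scaling by library size only. *Cd40*, the receptor for help from CD4 T cells, was at 7.02, 6.78 and 5.44 CPM and rose to 98.7, 77.8 and 101 CPM (3.85 ± 0.15, adjusted p = 1.82e-07). *Cd86*, a ligand of CD28, rose from 64.7, 49.7 and 38.4 to 234, 169.7 and 155 CPM (1.87 ± 0.22, adjusted p = 6.27e-05), while its relative *Cd80* rose by 0.31. Inhibitory ligands rose as well. *Cd274*, which encodes PD-L1, rose from 390.4, 371 and 339 to 1280.3, 1143 and 1244 CPM (1.74 ± 0.10, adjusted p = 1.10e-06), *Pdcd1lg2* (PD-L2) by 0.70 and *Lgals9* (galectin-9) by 1.93. The groups were separate for *Cd40*, *Cd86* and *Cd274*. Among the genes that fell were *Tnfsf14* (LIGHT), from 6.46, 4.99 and 4.6 to 1.76, 2.02 and 1.63 CPM (-1.57 ± 0.17, adjusted p = 3.93e-05), and *Vsir* (VISTA), at -1.12. *Cd83*, a marker of mature DCs, was at 0.40 and did not pass.

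Chemokines rose in 13 of 25 tested genes and fell in none (median 0.53), and 12 rose and 2 fell under scaling by library size only. The ligands of CXCR3, the receptor on activated T cells and NK cells, held the largest changes. *Cxcl10* was at 6.44, 3.3 and 4.08 CPM in unstimulated DCs and 582, 444 and 780.2 CPM after IFN-β (7.03 ± 0.31, adjusted p = 3.48e-07). *Cxcl9* rose from 0.380, 0.247 and 0.406 to 50.9, 35.7 and 110.0 CPM (7.56 ± 0.53, adjusted p = 2.82e-06) and *Cxcl11* from 0.127, 0.0225 and 0 to 17, 12.2 and 21.1 CPM (8.39 ± 0.49, adjusted p = 1.16e-06), the largest change of all called genes. The annotation classes *Cxcl11* as a polymorphic pseudogene, and *Gm2673* overlaps it on the opposite strand. All 3 were separate between groups by a wide margin. The CC chemokines that rose included *Ccl12* (4.42), *Ccl8* (3.31), *Ccl7* (2.56), *Ccl2* (1.70), *Ccl5* (1.57) and *Ccl4* (1.32). The neutrophil attractants *Cxcl1* (0.08), *Cxcl2* (0.51), *Cxcl3* (0.33) and *Cxcl5* (0.28) did not pass, nor did *Ccl17* (-0.23). With the replicate letters as a block, 17 chemokines were higher in place of 13 and 3 were lower in place of 0.

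Inflammatory cytokines were higher in 8 of 22 tested genes and lower in none (median 0.77), and 1 was lower under scaling by library size only. *Il27*, a subunit of interleukin 27, was at 1.01, 0.764 and 0.541 CPM and rose to 13, 10.3 and 12.5 CPM (3.96 ± 0.20, adjusted p = 8.15e-07). *Il6* rose from 0.836, 1.26 and 2.08 to 4.05, 3.69 and 7.13 CPM (1.81 ± 0.33, adjusted p = 0.00128), *Tnf* from 73.3, 87 and 105 to 155, 169 and 230.3 CPM (1.06 ± 0.16, adjusted p = 4.13e-04) and *Ptgs2*, the inducible cyclooxygenase, from 2.74, 2.25 and 1.78 to 12.6, 9.69 and 9.42 CPM (2.23 ± 0.17, adjusted p = 3.98e-06). These 4 genes did not overlap, though *Il6* stayed at a low level. Other classical products of DC activation were not called. *Il12b*, the p40 subunit of interleukin 12, was at 3.67, 3.93 and 2.62 and 4.92, 4.49 and 3.42 CPM (0.33 ± 0.17, adjusted p = 0.13), and *Il1b* at 33.1, 47 and 63.9 and 37, 64.4 and 95.1 CPM (0.45 ± 0.31, adjusted p = 0.26). Both groups of values overlapped for each. With the replicate letters as a block, *Il12b* (0.34, adjusted p = 0.040) and *Il1b* (0.41, adjusted p = 0.034) were called higher. In that fit 12 cytokines were higher in place of 8, and 1 was lower. *Il12b* was also called higher without IFN-β-treated C (0.47) and *Il1b* without IFN-β-treated A (0.73). *Il10* had 1 count in the unstimulated and 4 in the IFN-β-treated libraries, a ratio of 4.40 with a 95% interval of 0.436 to 217 from counting error only.

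Cytokines that act on NK cells and memory T cells, and related ligands, follow. Of 13 tested genes for interleukin 15, interleukin 18, TNF family cytokines and antagonists, 8 rose and none fell (median 1.88). *Il15* was at 21.3, 12.1 and 8.23 CPM and rose to 78.8, 54.1 and 48.8 CPM (2.13 ± 0.33, adjusted p = 4.31e-04), and *Il15ra*, the chain that presents it on the cell surface, rose by 2.40. *Il18* (1.93) and its soluble antagonist *Il18bp* (2.14) rose side by side, as did *Il1rn* (1.77), the antagonist of the interleukin 1 receptor. *Tnfsf10*, which encodes the death ligand TRAIL, rose from 4.08, 3.01 and 1.96 to 107, 71 and 89.6 CPM (4.89 ± 0.29, adjusted p = 1.25e-06), without overlap. *Tnfsf13b* (BAFF) was at -0.03 and did not pass.

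Interferon genes themselves were barely detected. Of 21 listed, 17 had 0 counts in all 6 compared libraries and only *Ifnb1* was tested. It had 0, 0 and 1 counts in unstimulated A, B and C and 9, 5 and 9 counts after IFN-β (4.18 ± 0.81, adjusted p = 0.00178), a ratio of 25.3 with a 95% interval of 4.11 to 1043 from counting error only. It did not pass the filter in a fit of the 2 groups alone. *Ifna1* and *Ifna2* had 1 count each, in IFN-β-treated library A. The list summed to 0, 0 and 0.0677 CPM in unstimulated and 0.281, 0.133 and 0.249 CPM in IFN-β-treated A, B and C. *Ifnb1* made up 0.0226 CPM of the sum in unstimulated C, so a further listed gene had counts there.

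Receptors for cytokines moved both ways: 14 of 29 rose and 8 fell, with a median of 0.29 that became -0.02 under scaling by library size only, where 10 rose and 12 fell. *Il12rb1*, a subunit shared by the receptors of interleukins 12 and 23, rose from 1.14, 0.921 and 0.587 to 15.1, 9.05 and 10.7 CPM (3.73 ± 0.28, adjusted p = 4.81e-06), and *Il13ra1* (1.61), *Il10ra* (0.93) and *Tnfrsf1b* (0.90) rose less. Of the 8 genes that fell, 4 belong to the interleukin 1 receptor family. *Il18r1* fell from 1.29, 2.87 and 3.68 to 0.468, 0.744 and 0.746 CPM (-2.01 ± 0.40, adjusted p = 0.00206), with *Il1r1* at -1.84, *Il1rl1* (ST2) at -1.5 and *Il18rap* at -1.01. *Ifngr1*, the binding chain of the IFN-γ receptor, fell by 0.66, while *Ifngr2* rose by 0.39. Chemokine receptors rose in 6 and fell in 1 of 15 tested genes (median 0.47), and in 4 and 4 under scaling by library size only. *Ccrl2* rose from 16.1, 15.5 and 11.7 to 133, 101 and 107 CPM (2.98 ± 0.18, adjusted p = 1.42e-06), *Ccr7*, which guides DCs to lymph nodes, by 0.49, and *Cxcr2* fell by 1.20. With the replicate letters as a block, 8 chemokine receptors were higher in place of 6 and 4 were lower in place of 1.

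Genes of cell death and survival rose in 26 and fell in 5 of 41 tested (median 0.54), and in 22 and 10 under scaling by library size only. *Casp4* and *Mlkl* changed most among the called members. *Casp4*, encoding the caspase-11 that senses cytosolic LPS, was at 16.3, 14.4 and 12.9 CPM and rose to 101, 85.2 and 97.2 CPM (2.7 ± 0.12, adjusted p = 3.48e-07), and *Mlkl*, the pore former of necroptosis, rose from 35.6, 34.6 and 24.6 to 167, 151 and 164 CPM (2.35 ± 0.13, adjusted p = 9.73e-07). *Casp1* (1.76), *Gsdmd* (0.94) and *Casp8* (1.03) rose too. So did inhibitors of death: *Cflar* by 1.66, *Mcl1* by 0.68, *Xiap* by 0.66 and *Bcl2l1* by 0.56. *Ripk3* (0.05) and *Bax* (-0.11) did not pass. *Bmf*, which encodes a pro-apoptotic BH3-only protein, fell from 52.7, 47.7 and 45.1 to 24.1, 24.6 and 19.4 CPM (-1.09 ± 0.11, adjusted p = 2.78e-05).

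Fc receptors moved both ways. The activating receptor genes *Fcgr4*, from 5.3, 3.41 and 2.41 to 51.9, 37.4 and 40.2 CPM (3.55 ± 0.26, adjusted p = 3.98e-06), *Fcgr1* (2.54) and their signalling chain *Fcer1g* (0.50) rose, though the activating *Fcgr3* was at -0.01 and did not pass. *Fcgr2b*, the inhibitory receptor, fell by 0.71. *Fcrls* fell by 0.67, and *Fcgrt*, the receptor that recycles IgG, by 0.74 (adjusted p = 0.017), a call lost without unstimulated A (-0.54) or without IFN-β-treated B (-0.65) or C (-0.64). In all, 3 of 10 tested Fc receptor genes rose and 3 fell (median -0.28). *Fcgr1* is also among the macrophage and monocyte markers, of which *Mertk* (1.14) and *Ly6c2* (1.13) rose and *Adgre1* (0.06), *Csf1r* (-0.06), *Lyz2* (-0.12) and *Cd68* (0.37) did not pass.

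C-type lectin receptors rose in 8 and fell in 4 of 25 tested genes (median 0.32), and in 13 and 7 with the replicate letters as a block. When only library size was used for scaling, the balance turned, with 5 higher, 7 lower and a median of 0.02. *Cd69*, an early activation antigen, was at 6.49, 8.53 and 8.69 CPM and rose to 185, 133 and 195 CPM (4.43 ± 0.23, adjusted p = 8.83e-07), and *Klrk1*, encoding NKG2D, rose from 1.65, 1.86 and 1.69 to 18.1, 12.6 and 16.9 CPM (3.19 ± 0.22, adjusted p = 2.82e-06). *Clec4e* (Mincle) rose by 1.85 and *Clec9a*, a receptor for dead cells on cross-presenting DCs, by 0.73. *Clec10a* fell by 0.79. *Cd209c* fell by 2.08 at a low level, from 0.431, 0.247 and 1.2 to 0.141, 0.133 and 0.166 CPM, a call lost without unstimulated C (-1.18) or without IFN-β-treated A (-2.06) or B (-2.02). Without IFN-β-treated B, 2 lectin genes were lower in place of 4.

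Complement genes rose in 6 and fell in 1 of 19 tested (median 0.35), in 11 and 2 with the replicate letters as a block, and in 4 and 4 under scaling by library size only. *C4b* rose from 0.0760, 0.0674 and 0.0451 to 1.5, 0.823 and 0.635 CPM (3.93 ± 0.53, adjusted p = 1.82e-04), *Cfb* of the alternative pathway by 1.74 and *C3* by 1.06, while the C5a receptor gene *C5ar2* fell by 1.16. Scavenger and phagocytic receptors rose in 5 and fell in 2 of 20, a share of higher genes close to the 23.6% of all tested genes, and in 8 and 6 with the replicate letters as a block. When only library size was used for scaling, 3 were higher and 9 lower. Their median of 0.09 became -0.22 with that scaling and -0.04 without IFN-β-treated C. *Mertk* (1.14 ± 0.10, adjusted p = 1.23e-05) and *Axl* (1.02 ± 0.09, adjusted p = 8.55e-06), kinases that clear dying cells and dampen interferon signalling, rose, and *Cd163*, the haemoglobin scavenger, fell at a low level from 0.279, 0.359 and 0.835 to 0.0937, 0.0797 and 0.0829 CPM (-2.48 ± 0.57, adjusted p = 0.00479). Integrins and adhesion molecules rose in 13 and fell in 4 of 29, with a median of 0.18 that became -0.13 under scaling by library size only, where 11 rose and 9 fell. *Itga9* rose from 0.0760, 0.0225 and 0.0451 to 1.1, 1.17 and 1.91 CPM (4.79 ± 0.40, adjusted p = 7.47e-06), *Vcam1* by 2.13 and *Siglec1*, the sialic acid receptor of interferon-exposed myeloid cells, by 1.65. *Cd47*, the signal against phagocytosis, rose by 1.49, and *Itga1* fell by 1.12.

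Transcription factors of the NF-κB and AP-1 families and early-response genes rose in 20 and fell in 4 of 36 (median 0.43). Under scaling by library size only these counts were 10 and 9. *Batf2*, a partner of IRF1, rose from 9.2, 7.23 and 5.96 to 41.6, 37.8 and 42.7 CPM (2.45 ± 0.19, adjusted p = 5.05e-06), *Mafk* by 1.39 and *Atf3* by 1.15. Subunits of NF-κB rose little, *Rel* by 0.69, *Relb* by 0.56, *Nfkb1* by 0.47 and *Rela* by 0.44, together with its inhibitors *Nfkbia* (0.49) and *Tnfaip3* (0.99). *Batf* fell from 13.2, 13 and 11.6 to 6.11, 8.63 and 5.33 CPM (-0.91 ± 0.18, adjusted p = 0.00182). Myeloid transcription factors rose in 11 and fell in 9 of 32 (median 0.04, -0.04 with upper-quartile factors and -0.27 under scaling by library size only, where 7 rose and 16 fell), against 23.6% higher and 23.3% lower over all tested genes, and 5 fell without unstimulated A, without unstimulated B or without IFN-β-treated C. *Cebpe* (1.46), *Nr1h3* (1.09), which encodes the sterol receptor LXRα, *Tcf4* (1.07) and *Spi1* (0.45) rose. *Pparg* fell by 0.92, *Cebpa* by 0.75, *Myc* by 0.63 and *Id1* by 1.20. *Maf* overlapped between groups at 41.1, 24.5 and 11.8 and 94.9, 51.7 and 37.8 CPM (1.25 ± 0.42, adjusted p = 0.0304) and lost its call without unstimulated B (1.22) or C (0.91) or without IFN-β-treated A (0.79), and *Klf4* (-1.21) lost its call without unstimulated A (-1.04) or B (-1.21) or without IFN-β-treated C (-1.02). *Irf8* and *Spi1* rose while *Zbtb46* (0.10) and *Batf3* (0.14), factors of conventional DCs, did not pass.

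Metabolic enzymes with effector roles changed alongside. Of 16 enzymes of arginine, nitric oxide, itaconate and tryptophan metabolism, 8 rose and 1 fell (median 0.67). In the block fit 11 rose and 2 fell, with upper-quartile factors 3 fell, and under scaling by library size only 7 rose and 3 fell. *Nos2*, the inducible nitric oxide synthase, was at 3.52, 1.95 and 0.925 CPM in unstimulated DCs and 112, 61.7 and 90.5 CPM after IFN-β (5.38 ± 0.39, adjusted p = 3.83e-06). *Acod1*, which makes itaconate from a TCA cycle intermediate, rose from 166, 218 and 212 to 1593, 1668 and 2095 CPM (3.17 ± 0.15, adjusted p = 4.38e-07). Both were separate between groups. *Gch1*, which supplies the nitric oxide synthase cofactor, rose by 1.72, *Slc7a2*, an arginine transporter, by 1.31, and *Kynu* by 1.68. *Arg1* (0.20) and *Ido1* (0.72) did not pass. Enzymes of nucleotide metabolism rose in 11 and fell in 3 of 19 (median 0.95), and in 11 and 7 under scaling by library size only. *Cmpk2*, the neighbour of *Rsad2* that supplies its nucleotide substrate, rose from 39.5, 24 and 14.1 to 1417, 969 and 1208 CPM (5.54 ± 0.36, adjusted p = 1.95e-06), *Nt5c3* by 3.39, *Pnp* by 2.57 and *Xdh*, xanthine dehydrogenase, by 1.94. *Impdh2* and *Ppat*, of purine synthesis, fell by 1.17 and 0.92, and *Nt5e* (CD73), which makes extracellular adenosine, fell by 1.32.

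Cholesterol genes fell more often than they rose. Of 32 tested, 5 rose and 20 fell (median -0.52). Enzymes from the early to the late steps of synthesis fell, with *Hmgcs1* at -0.69, *Fdps* at -1.13, *Fdft1* at -1.10, *Lss* at -1.11 and *Cyp51* at -1.11. *Sqle*, encoding squalene epoxidase, was at 85.2, 66.3 and 74.3 CPM in unstimulated DCs and 34, 23.4 and 22.5 CPM after IFN-β (-1.49 ± 0.16, adjusted p = 3.94e-05). Its driver *Srebf2* fell by 0.53. Export genes *Abca1* (0.41) and *Abcg1* (0.75) rose, as did *Npc2* (0.96) of the lysosome and *Mylip* (0.63), a ubiquitin ligase. *Idi1* (-0.13) did not pass. *Ch25h*, which makes the antiviral oxysterol 25-hydroxycholesterol and is listed among antiviral effectors too, rose from 1.04, 2.34 and 2.62 to 13.2, 13.7 and 23.3 CPM (3.05 ± 0.31, adjusted p = 2.78e-05).

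Lysosomal genes rose in 14 and fell in 1 of 30 tested, with a median of 0.28 that became -0.02 under scaling by library size only, where 7 rose and 7 fell. *Lamp2* (1.35 ± 0.14, adjusted p = 3.69e-05) and the cathepsin gene *Ctsc* (1.26 ± 0.17, adjusted p = 2.14e-04) rose by more than 1. *Ctsb* rose by 0.54 and *Lipa*, the lysosomal lipase, by 0.54. *Gusb* fell by 0.31, and with the replicate letters as a block 19 genes were higher and 2 lower. Genes of the unfolded protein and integrated stress response rose in 8 and fell in 2 of 23, with a median of 0.11 that became -0.20 under scaling by library size only, where 3 rose and 10 fell. With upper-quartile factors, 6 rose and 5 fell. *Ddit3* (CHOP) rose from 10.1, 11.5 and 6.54 to 20.8, 22.3 and 19.4 CPM (1.15 ± 0.17, adjusted p = 3.69e-04) and *Hspa5* (BiP) by 0.67, while *Herpud1* fell by 0.81 and *Eif2ak3* (PERK) by 0.70. *Chac1* rose by 0.95 (adjusted p = 0.0335), a call lost without unstimulated A (0.99) or C (0.71) or without IFN-β-treated A (1.01) or B (0.79). Without unstimulated C or without IFN-β-treated A, 5 genes of the stress response rose in place of 8. The block fit had 10 higher and 6 lower. Antioxidant genes of the NRF2 response rose in 3 and fell in 4 of 21 (median -0.14), in 5 and 9 with the replicate letters as a block and in 1 and 13 under scaling by library size only. *Keap1*, the inhibitor of NRF2, rose from 65.6, 58.7 and 54.3 to 121, 109 and 117 CPM (0.96 ± 0.08, adjusted p = 7.13e-06), and the subunits of glutathione synthesis *Gclm* and *Gclc* fell by 1.08 and 0.75. Without unstimulated C, or without IFN-β-treated A or B, 2 antioxidant genes fell in place of 4.

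**Figure D4:**
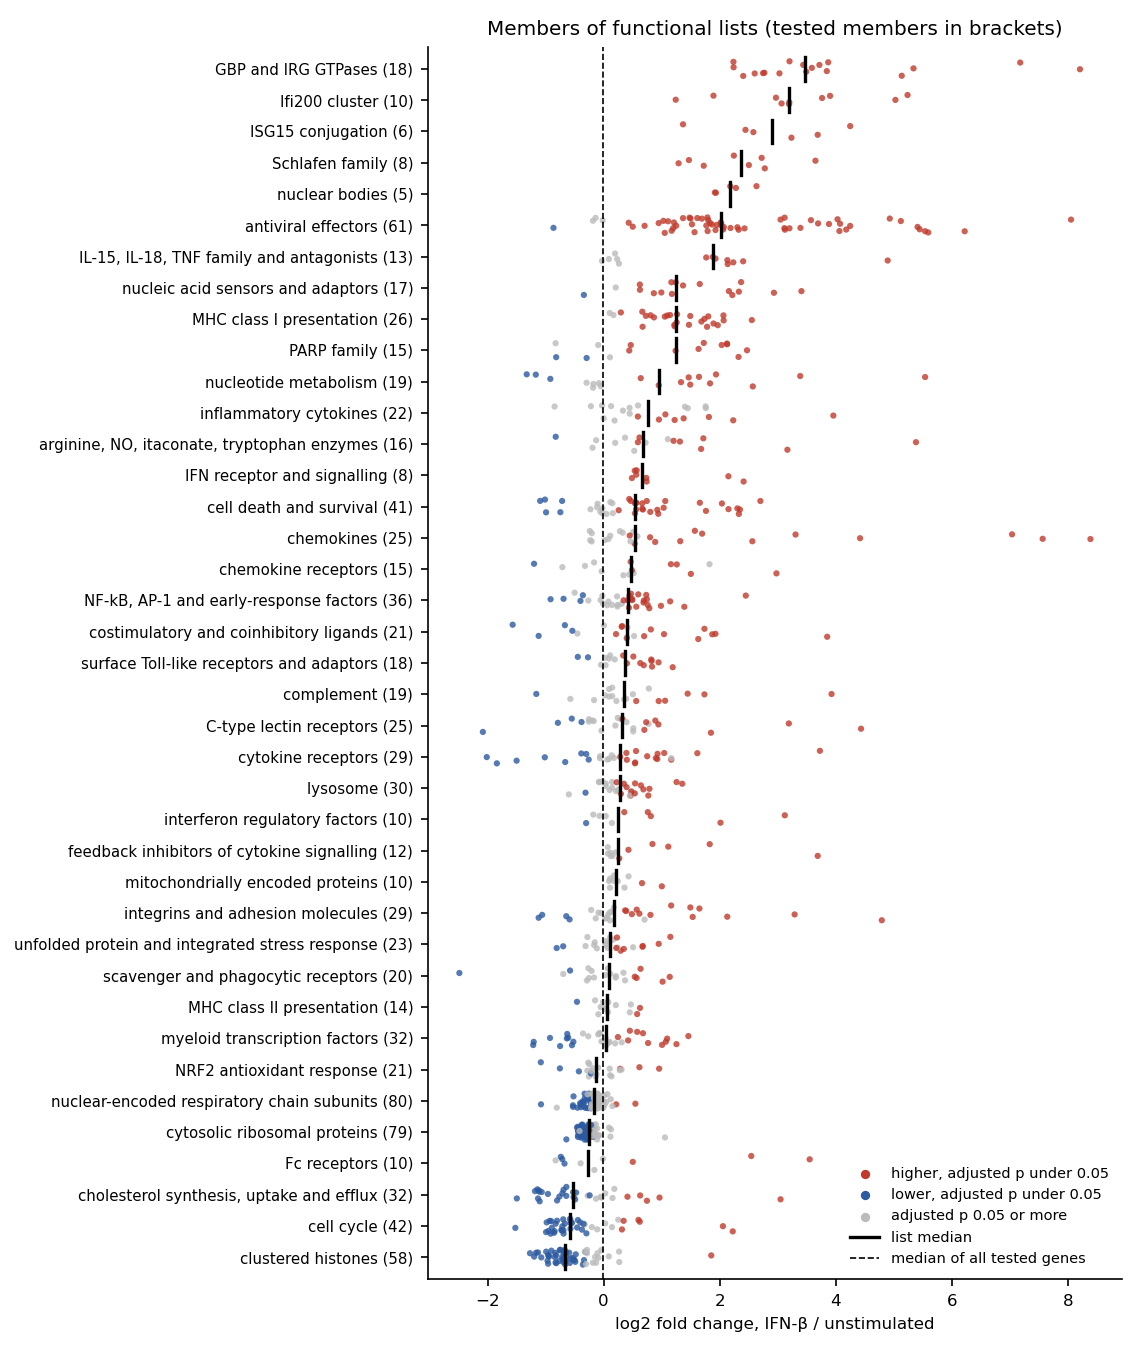
Log2 fold change of IFN-β-treated over unstimulated DCs (horizontal axis) for each tested member of the 39 functional lists with at least 5 tested members, coloured by call, with the list median as a bar and the number tested in brackets. The dashed line is the median of all tested genes. The GBP and IRG GTPases (3.46) and the Ifi200 genes (3.20) lay at the top, and cholesterol (-0.52), cell cycle (-0.57) and histone genes (-0.66) at the bottom.

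Genes of the cell cycle fell in 30 and rose in 6 of 42 tested (median -0.57). Mitotic regulators were among them: *Cdc20*, an activator of the anaphase-promoting complex, was at 5.7, 6.06 and 5.75 CPM in unstimulated DCs and 1.94, 2.39 and 1.77 CPM after IFN-β (-1.52 ± 0.21, adjusted p = 1.87e-04), and *Ccnb1* (-0.90), *Plk1* (-0.85), *Aurka* (-0.93) and *Top2a* (-0.71) fell. Replication factors fell too, with *Mcm2* (-0.69), *Mcm5* (-0.57) and *Rrm1* (-0.54), and *Mki67* fell by 0.44. The D-type cyclins went the other way. *Ccnd1* rose from 66.3, 71.2 and 48.5 to 307, 286 and 276 CPM (2.22 ± 0.15, adjusted p = 2.51e-06) and *Ccnd2* from 342, 374 and 299 to 1426, 1368 and 1424 CPM (2.05 ± 0.10, adjusted p = 5.66e-07). The inhibitor genes *Cdkn1a* (0.60) and *Cdkn2d* (0.62) rose, and *Pcna* (0.32) rose too.

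Histone genes of the replication clusters fell in 44 and rose in 1 of 58 tested (median -0.66). *H3c8* was at 6.33, 5.57 and 6.0 CPM in unstimulated and 1.64, 2.92 and 2.9 CPM in IFN-β-treated DCs (-1.27 ± 0.23, adjusted p = 0.00119), without overlap. *H2aw* was the gene that rose (1.85). These genes are near-identical copies, and their counts depend on how reads with several matches were treated.

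Cytosolic ribosomal protein genes had 53 of 79 tested lower and none higher, by small amounts (median -0.26). *Rpl13a* fell from 8.13, 9.43 and 9.34 to 5.43, 6.05 and 5.77 CPM (-0.64 ± 0.11, adjusted p = 9.97e-04), and the next falls were *Rpl14* (-0.46) and *Rpl13* (-0.44). The count fell to 30 without IFN-β-treated A and to 35 without IFN-β-treated B or without unstimulated A. It was 63 with the replicate letters as a block. Nuclear-encoded subunits of the respiratory chain had 26 lower and 2 higher of 80 tested (median -0.17), and 16 lower without IFN-β-treated A. This count depended on scaling as well, with 42 lower with upper-quartile factors and 76 lower with library size only. In the block fit it was 38. *Dmac2l* fell by 1.08 (adjusted p = 0.005), *Ndufb10* by 0.53 and *Ndufs7* by 0.52, while *Ndufs4*, a subunit of complex I, rose from 30.7, 30.6 and 29 to 40.2, 41.3 and 50.5 CPM (0.55 ± 0.09, adjusted p = 4.91e-04). *Atp5pb*, of the ATP synthase, was called higher (0.22 ± 0.06, adjusted p = 0.0165), but was at -0.09 under library size scaling (adjusted p = 0.26) and lost its call without unstimulated C (0.20) or IFN-β-treated C (0.20). Of 10 tested genes of the mitochondrial genome, 2 rose (*mt-Atp6*, 1.0, and *mt-Nd6*, 0.66) and none fell, with a median of 0.21 that became -0.10 under scaling by library size only, where neither gene was called. The call of *mt-Atp6* was lost with DESeq2 (1.02, adjusted p = 0.099) and without unstimulated A (1.03) or C (0.72), IFN-β-treated A (0.89) or C (0.97), or LPS B (1.0).

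The largest changes among called genes with a mean of at least 1 CPM in the higher group, which leaves out *Gbp10*, were spread over several functions. After *Cxcl11* (8.39), *Ifit1bl1* (8.05) and *Cxcl9* (7.56) came *BC023105*, a processed pseudogene with 2 counts in unstimulated and 393 in IFN-β-treated libraries (ratio 216, 95% interval 59.5 to 1792 from counting error only), and *Iigp1* (7.18). The largest falls were smaller. *Kif26b*, a kinesin family gene, fell from 2.53, 1.68 and 0.902 to 0.141, 0.266 and 0 CPM (-3.60 ± 0.59, adjusted p = 6.43e-04). *Kcne3*, a potassium channel subunit, went from 0.760, 0.853 and 1.69 to 0.0234, 0.212 and 0.110 CPM (-3.26 ± 0.52, adjusted p = 5.27e-04). *B3gnt7* (-3.19), *Slc16a14* (-2.76) and *Atg9b* (-2.64) followed.

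The smallest p-values belonged to other genes. *Kdr*, encoding the VEGF receptor 2, was at 10.7, 9.36 and 9.21 CPM in unstimulated libraries A, B and C and 133, 123 and 152 CPM after IFN-β (3.80 ± 0.10, adjusted p = 2.09e-08). *Enpp4*, an ectophosphatase, rose from 1.72, 1.46 and 1.13 to 59.3, 48.6 and 61.9 CPM (5.30 ± 0.16, adjusted p = 5.71e-08), and *Flt4*, encoding the VEGF receptor 3, from 0.659, 1.03 and 0.429 to 36.3, 32.5 and 35.2 CPM (5.61 ± 0.20, adjusted p = 1.82e-07). The groups of these genes were far apart, though *Flt4* was at a low level without stimulation. *Mx1*, *Gbp5* and *Cd40* shared the adjusted p of *Flt4*. Among genes that fell, the smallest belonged to *Add3* (-1.42 ± 0.07, adjusted p = 8.00e-07), *Deptor*, an inhibitor of mTOR, from 47.2, 41.6 and 44.4 to 11.4, 11.8 and 10.9 CPM (-1.96 ± 0.10), *Fasn*, the fatty acid synthase, from 216, 191 and 241 to 59.9, 64.7 and 67.1 CPM (-1.76 ± 0.09), *Ssh2* (-1.49) and *Farsb* (-1.01), a subunit of a tRNA synthetase. In GRCm38, *Kdr* lies at chr5:75932827-75978458 and *Flt4* at chr11:49609263-49652739.

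The ISRE core was more frequent in promoters of genes with larger rises. At least 1 RefSeq promoter window was found for 10667 tested genes, and a core in any window of 4.02% of them. The share was 30.2% among 63 genes with a log2 fold change of at least 4 (Wilson 95% interval 20.2 to 42.4%), 25.7% among 70 genes from 3 to 4, 17.6% among 148 genes from 2 to 3 and 9.30% among 527 genes from 1 to 2. It was 4.71% among 1785 genes called higher by less than 1 and 3.19% among 5107 genes that were not called. Genes that fell had the core in 2.40% of 2454 promoters below a change of 1 and in 2.14% of 513 promoters at 1 or more. The GAS core TTCNNNGAA, which reads the same on both strands, was found in 8.30% of all windows, in 15.9% of the genes with a change of at least 4 and in 8.18% of genes not called. Among genes with 1 window only, a restriction added after the data were seen, the ISRE share was 26.9% at a change of at least 4 and 2.43% in genes not called. Over genes with any number of windows, a core followed by C was found in 23.8% and 0.705% of these classes. Family members have similar promoters and are not independent, and most genes with a change of at least 4 held neither core within this window.

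**Figure D5:**
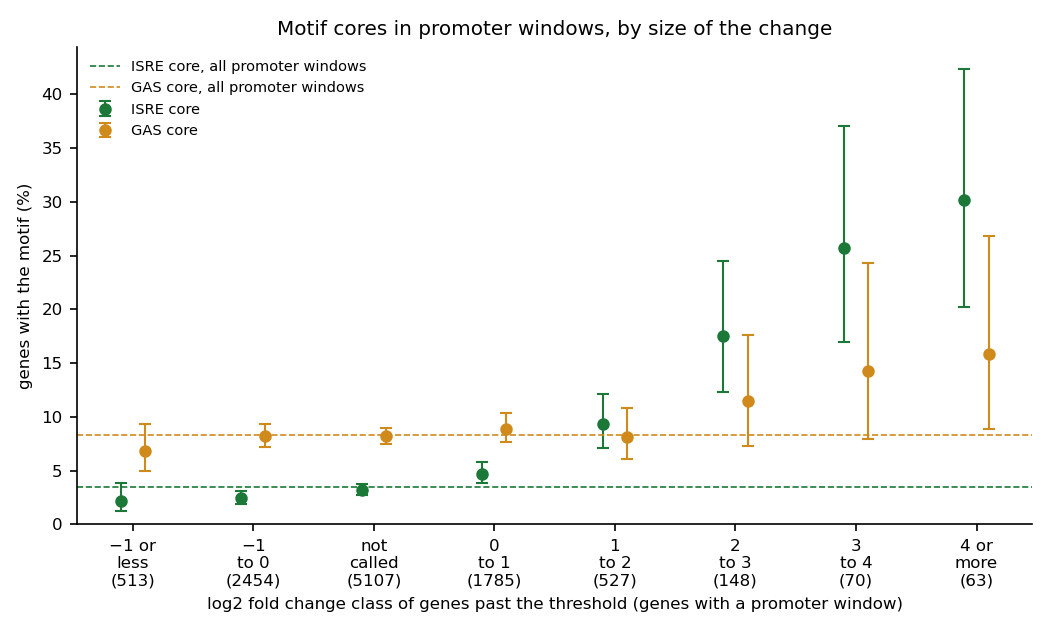
Share of genes in percent with an ISRE core or a GAS core (vertical axis) by class of log2 fold change (horizontal axis), with Wilson 95% intervals as bars and the shares over all 32851 promoter windows as dashed lines. The ISRE share went from 2.14% in genes lower by 1 or more to 30.2% in genes higher by 4 or more.

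The direct comparison with LPS shows, on the TMM scale, where the IFN-β response was the smaller or the larger. TMM factors were 0.783 to 0.841 in LPS libraries and 0.977 to 1.02 in IFN-β-treated ones. The lower factors raise CPM in LPS libraries relative to scaling by library size only. List counts and medians of this comparison with other scaling are not reported here, and small differences may depend on the scale. Between the IFN-β and LPS libraries, 7989 of 16260 genes differed (49.1%), of which 4194 were higher with IFN-β (25.8%) and 3795 lower with IFN-β (23.3%). Of the 8 receptor and signalling genes, 5 were lower with IFN-β and none was higher (median -0.35). *Stat2* (-0.33 ± 0.19, adjusted p = 0.18) and *Irf7* (-0.22 ± 0.48, adjusted p = 0.74) did not pass, where each value is the log2 difference of IFN-β over LPS with its SE. The list of 61 antiviral genes had 30 lower and 2 higher with IFN-β than with LPS (median -0.47), among them *Rsad2*, at 4007, 2923 and 3580.0 CPM with IFN-β and 14198, 10835 and 12362 CPM with LPS (-1.83 ± 0.38, adjusted p = 0.00218). *Cxcl10* was lower too (-2.59 ± 0.25, adjusted p = 1.14e-05).

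Inflammatory cytokines held the widest gap, with 20 of 22 lower with IFN-β and a median difference of -4.98. *Il12b* was at 4.92, 4.49 and 3.42 CPM with IFN-β and 3459, 3822 and 3564 CPM with LPS (-9.72 ± 0.21, adjusted p = 1.16e-09), and *Il6* at 4.05, 3.69 and 7.13 and 1509, 1384 and 1993 CPM (-8.36 ± 0.35, adjusted p = 4.27e-08). *Nos2*, which rose with IFN-β, was at 4824, 3605 and 3619.6 CPM with LPS (-5.51 ± 0.37, adjusted p = 8.94e-07). Chemokines had 16 lower and 1 higher of 25 (median -1.52), and costimulatory and coinhibitory ligands 11 lower and 6 higher of 21 (median -0.88), with *Cd40* at -3.54 ± 0.14. Cell cycle genes were higher with IFN-β in 34 and lower in 4 of 42 (median 1.17), and histone genes higher in 47 of 58 (median 1.24). A number of genes were higher with IFN-β than with LPS after rising over the unstimulated level: *C4b* (2.53 ± 0.48, adjusted p = 0.00125), *Il12rb1* (1.25 ± 0.24, adjusted p = 0.0015), *Flt4* (1.03 ± 0.15, adjusted p = 2.16e-04) and *Ccnd1*, at 307, 286 and 276 CPM with IFN-β and 45, 39.3 and 32.1 CPM with LPS (2.90 ± 0.16, adjusted p = 2.00e-07).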

How the data were processed

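The authors trimmed reads with Trim Galore 0.6.0 and mapped them with STAR (2.7.8a in the submitters' processing notes) to the mouse genome mm10, and STAR counted reads per gene of a GENCODE annotation (M20 in the study's methods). The deposited values are raw counts for 9 libraries, with no normalization. The strand setting of the counts is not given in the sources used here, so overlapping and antisense genes cannot be told apart. The columns of other samples numbered 0.

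Genes were kept by filterByExpr (16260 of 55471; 25539 had no count in any library). edgeR 4.0.16, with limma 3.58.1 in R 4.3.3, fitted TMM-scaled counts by quasi-likelihood with 1 term for each of 3 conditions over 9 libraries, and p-values were adjusted by Benjamini-Hochberg at 0.05 over all tested genes. The SE is the absolute log2 fold change divided by the square root of F. Single-gene exact permutation tests of 3 against 3 cannot go below 0.1 and were not used. The fit was tested on simulated data. Gene positions come from GENCODE M21 (55230 identifiers matched) and promoter windows from RefSeq on GRCm38.p6, 250 bases before to 50 after the start. Intervals, and floors of 3 counts, cover counting error only.

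Genes named are pathway and marker genes set by name, the 2 largest rises and the largest fall among called members of each list, and the 5 largest changes (at least 1 CPM in the higher group) and smallest p-values in each direction. Other list members named as examples were chosen after their values were seen. The single values of some list members are not reported here. The 40 lists (1027 genes, 959 tested) and the named genes were chosen with earlier results of these data known. Alternatives were DESeq2 1.42.0, library-size and upper-quartile scaling, no filter, at least 10 counts in every library, the 2 groups alone, stricter thresholds, each library left out and the letters as a replicate block. Unstimulated and IFN-β-treated libraries of the same letter deviated together from their group means. Correlations across 16260 genes were 0.47 (A), 0.19 (B) and 0.40 (C). The letters were therefore taken to pair the libraries in the block fit only. The main fit left this pairing out, so its p-values, SEs and calls ignore it. It called 3837 genes higher and 3794 lower, against 4538 and 4613 in the block fit. Blocked values stand beside some of the results they change.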

Additional observations from a re-analysis of the deposited data

How the results depend on the processing

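Of the 139 named genes, 138 kept their direction and their side of the threshold with DESeq2, 137 with the replicate block and 129 under scaling by library size only. With a required log2 fold change of 1, 2052 genes changed (1329 higher, 723 lower) and 2834 differed between IFN-β and LPS. Scaling by library size only gave 2146 higher and 7484 lower (22.3% higher among called genes, against 50.3% with TMM), with 5940 of the 7631 calls made in the same direction, and upper-quartile factors gave 41.7% higher. Under library size only, list medians turned negative for feedback inhibitors -0.0665, IRFs -0.0566, cytokine receptors -0.0224, integrins and adhesion molecules -0.13, scavenger receptors -0.22, lysosome -0.0246, stress response -0.20, mitochondrially encoded proteins -0.10, MHC class II presentation -0.24 and myeloid transcription factors -0.27, as did *Atp5pb* (-0.0911). With each library left out in turn, the median of scavenger receptors ran from -0.0381 (without IFN-β-treated C) to 0.157, and *Il10*, with 5 counts over both groups, from -1.73 (without IFN-β-treated A) to 3.47. Leaving out each library in turn gave 6467 to 7742 changed genes, 3282 to 3824 higher and 3172 to 3918 lower, 6858 to 8049 that differed from LPS, and 557 to 630 changed list genes, against 624 with all libraries. In the replicate block, pairing by letter gave 9151 changed genes (4538 higher, 4613 lower), 735 list genes and 9425 genes that differed from LPS. Among the 139 named genes it changed the calls of *Il12b* and *Il1b* only. Genes given as examples outside these 139 could change too, as did *Sting1*, which the block fit called higher. The block moved 17 of the counts of list members by over 1.5 times and other such counts by less. A core required to be followed by C was found in 7.05% of promoters of genes higher by 1 or more, against 13.9% for the core alone. The number of windows per gene was an alternative added after the data were seen. Depth limits *Ifnb1*, *Il10*, *Gbp10* and the other interferon genes, whose folds are given as bounds or with counting intervals, or not at all.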

Other observations

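Several genes outside the functional lists changed strongly, and they are named here after their values were seen. *Ms4a4c*, of the membrane protein family on chromosome 19, was at 9.07, 5.5 and 0.541 CPM in unstimulated A, B and C and 345, 266 and 236 CPM in IFN-β-treated DCs (5.82 ± 0.64, SE, adjusted p = 4.79e-05), and library C was the lowest of the unstimulated ones, as for most antiviral genes. *Serpina3f*, a serine protease inhibitor, rose from 0.329, 0.225 and 0.113 to 30.2, 16.6 and 23.1 CPM (6.72 ± 0.45) and *Apol9a*, an apolipoprotein L, from 0.203, 0.404 and 0.0902 to 11.1, 13.2 and 10.5 CPM (5.61 ± 0.30), both in families of near-identical genes. *Lhx2*, a homeobox factor, rose from 0.431, 0.202 and 0.135 to 12.6, 8.55 and 9.61 CPM (5.34 ± 0.40). *Fn1*, fibronectin, fell by 0.96 on the log2 scale, from a mean of 0.537% to 0.224% of all counts.

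Other genes outside the lists that fell, also named after their values were seen, were *Elovl6* (-2.38) of fatty acid elongation, *Srm* (-2.23), which encodes spermidine synthase, *Cad* (-1.96) of pyrimidine synthesis, *Dkc1* (-1.93) and *Pus7* (-1.92), which encode pseudouridine synthases, *Rpp40* (-1.88), a ribonuclease P subunit, and *Bzw2* (-1.89).

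*Rn7s1*, a small cytoplasmic RNA gene, was called higher on the strength of 1 library, at 1.04, 1.15 and 0.812 CPM in unstimulated and 131, 0.744 and 0.911 CPM in IFN-β-treated DCs. By gene type, 24.7% of 12429 protein-coding genes rose and 28.3% fell, whereas 25% of 1072 genes of the annotation class TEC, transcripts still to be experimentally checked, rose and 5.60% fell.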
